A study of Homo sapiens with 14 samples.

Results

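HOXD13 clone c is 1 of 4 stably transfected HOXD13 lines made in HEK293, an established line of human embryonic kidney cells, and it is set here against its sister lines, the HOXD13 mix, clone a and clone b. Clone c gave 1 of the 14 arrays of the study, the sister lines gave 3, and the reference level was set by 3 arrays of cells that carried the V5-tag vector alone. The other 7 arrays, 3 of HA-tag vector cells and 4 of lines with HA-tagged HOXD9, were hybridised in the same study and serve only for a side-by-side reading. All of the cells had been selected with G418, an antibiotic that only cells with a plasmid resistance gene survive, and the HOXD13 lines carried HOXD13 with a V5 tag. Per the labels, the mix was the population left after selection, and clones a, b and c were each picked from such a population, so the 4 lines are not fully independent and each clone descends from few cells. Vector arrays are named biological replicates in the labels, with no word on how their cultures were kept apart, so a p-value here reflects only the spread among these samples, which may be technical in part.

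HOXD13 is the last gene of the HOXD cluster, and its product is a homeodomain transcription factor of the developing digits and the urogenital tract. HOX proteins bind short AT-rich DNA motifs and can raise or lower the expression of nearby genes. Clone c was chosen for its departure from the other lines on these same arrays, so its values are a description and carry no test. Tests below compare only the 3 sister lines with the 3 vector arrays, with clone c left out of the fit.

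Expression values are on the log2 scale of GCRMA, a method that corrects background by probe sequence and puts arrays on a common distribution, and a difference of 1 is a 2-fold difference. Probe sets naming 1 gene covered 10542 genes that reached 5 on at least 1 of the 7 arrays of the V5 set, each represented by its brightest probe set. Clone c counted as beyond its sister lines where it lay at least 1 log2 unit outside the range of all 3. The array number limits the precision: the median standard deviation of a gene was 0.05 over the 3 vector arrays and 0.13 over the 3 sister lines, and clone c has no replicate.

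The array of clone c stood apart in the control probe sets before any gene was considered. The 3′ minus 5′ difference of ACTB, a measure of how far labelled cRNA reached towards the 5′ end of the beta-actin transcript, was 2.24, 2.26 and 2.19 on the vector arrays, 2.13, 2.01 and 1.82 in the mix, clone a and clone b, and 2.80 in clone c. The same difference for GAPDH was 0.72, 0.69 and 0.68 on the vector arrays, 0.53, 0.57 and 0.56 in the mix, clone a and clone b, and 0.86 in clone c. Clone c was thus above the vector range in both controls, and all 3 sister lines were below it. The part of this in the results that follow was not tested, and with 1 array of clone c it cannot be told apart from the line. The median gene of clone c lay 0.13 below the vector mean, against 0.02 to 0.04 below it in the sister lines. Of 13 markers expected in HEK293, 8 reached 5, with summed log2 values of all 13 of 96.28 to 96.42 on the vector arrays, 95.44 to 96.51 in the sister lines and 93.20 in clone c, the lowest. Vimentin (VIM) read 14.11 to 14.12 on the vector arrays, 13.93 to 13.96 in the sister lines and 13.66 in clone c, keratin 18 (KRT18) 11.35 to 11.36, 11.25 to 11.54 and 10.66, and LIN28B 10.65 to 10.70, 10.46 to 10.67 and 10.79. Of the haematopoietic and endothelial markers 0 of 10 reached 5, with summed log2 values of 23.50 to 23.86 on the vector arrays, 23.48 to 23.58 in the sister lines and 23.43 in clone c. Of 11 fibroblast markers COL1A1 and LOX reached 5, with sums of 35.27 to 36.03, 36.35 to 37.47 and 36.62 in the same order, and of 9 squamous and hepatocyte markers 1 did.

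HOXD13 itself was high in clone c, slightly below each of its sister lines. The probe set with the brightest signal read 6.84, 7.01 and 6.94 on the vector arrays, 12.32, 12.55 and 12.59 in the mix, clone a and clone b, and 12.24 in clone c. In the sister lines the rise was 5.56 ± 0.09 (SE, n = 3 against 3, limma adjusted p = 1.54e-06), and clone c stood 5.31 above the vector mean. A second probe set gave 3.05 to 3.45 on the vector arrays, 8.39 to 8.41 in the sister lines and 8.26 in clone c. Another probe set that is annotated to HOXD13 behaved otherwise: it read 8.93 to 8.95 on the vector arrays, 10.15, 10.23 and 10.42 in the mix, clone a and clone b, and 8.87 in clone c, which was below all 3 vectors. The sequence that this last probe set covers was not analysed here.

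The other genes used to choose the line, FN1, MYC and BAMBI, divided into a kept change and changes at or below the vector level. FN1, which encodes the matrix protein fibronectin, read 10.55, 10.52 and 10.62 on the vector arrays, 11.68, 11.63 and 11.65 in the mix, clone a and clone b, and 11.38 in clone c. Clone c held 74.5% of the sister lines' rise of 1.09, and its FN1 value was above every vector array and below every sister line. MYC, a transcription factor of growth and ribosome synthesis, read 9.83, 9.82 and 9.85 on the vector arrays, 11.87, 12.21 and 12.22 in the sister lines and 9.64 in clone c. BAMBI, a decoy receptor that damps TGF-beta and BMP signals, read 9.15, 9.16 and 9.24 on the vector arrays, 10.44, 10.63 and 10.71 in the sister lines and 9.03 in clone c. For both MYC and BAMBI, clone c was below all 3 vectors while the sister lines were above them, at HOXD13 values, by the brightest probe set, of 12.24 in clone c and 12.32 to 12.59 in the sister lines.

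Clone c was at least 1 above all sister lines in 353 genes (3.35% of the 10542) and at least 1 below them in 589 genes (5.59%), 8.94% in all. Placed by the same rule against the other 3 HOXD13 lines, the mix was above in 0 genes and below in 1, clone a in 0 and 0, and clone b in 1 and 1. In each of these placements the other 3 lines included clone c, which can widen their range. These counts are therefore not a like-for-like baseline for clone c. With each array centred on its median the counts for clone c were 414 above and 497 below. Without the mix, whose shifts from the vector were the smallest of the sister lines (a median of 1.01 over the genes that rose, against 1.35 in clone a and 1.48 in clone b), the counts were 815 above and 997 below. Of the 353 genes above, 141 had sister lines within 0.5 of the vector mean and clone c more than 0.5 from it, 61 had the reverse, 149 had clone c and the sister lines on opposite sides of the vector mean, both by more than 0.5, and 2 had both moved to the same side. Of the 589 genes below, the sister lines had moved and clone c was within 0.5 of the vector mean in 277, clone c alone had moved in 60, they lay on opposite sides in 245, and both had moved to the same side in 7. Among the lower genes the largest class was thus that in which the sister lines alone had moved (277), followed by opposite sides (245). Among the higher genes the largest class was opposite sides (149), followed by clone c alone (141).

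**Figure D1:**
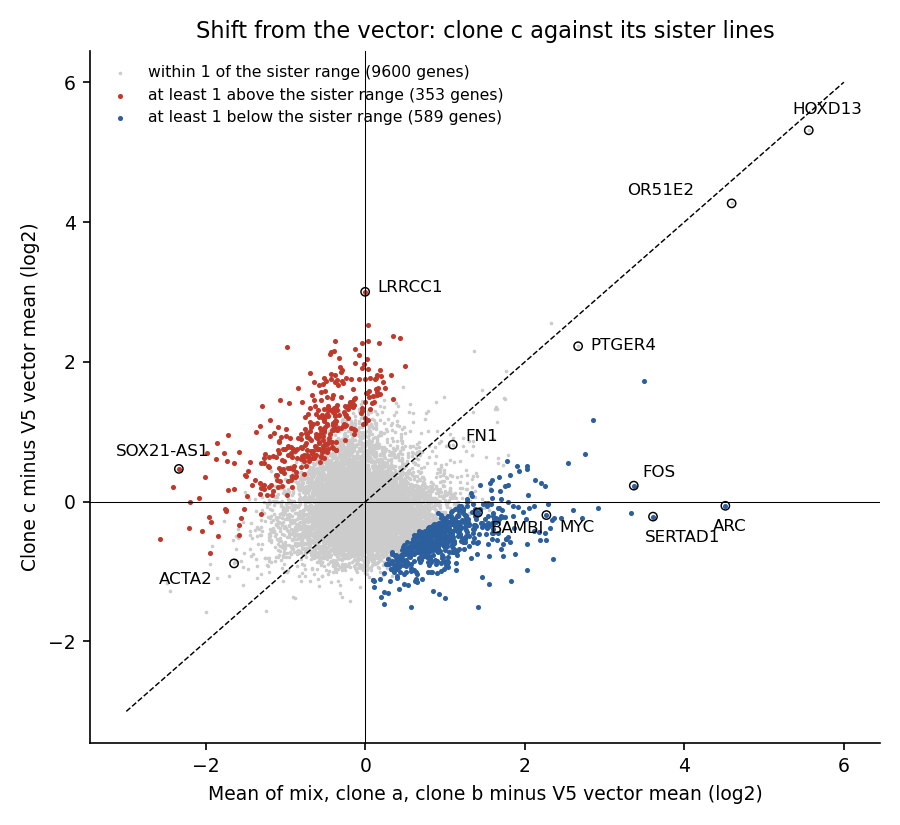
Each point is a gene (10542 in all), with the mean shift of mix, clone a and clone b from the V5 vector mean on the x axis and the shift of clone c on the y axis, both log2; the dashed line marks equal shifts. HOXD13, OR51E2, PTGER4 and FN1 lie near the dashed line, the 589 blue genes lie to the right and below it, and the 353 red genes lie to the left and above it.

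Counted from the vector mean, clone c did not hold fewer raised genes than every sister line. It had 307 genes at least 1 above the vector mean (2.91%) and 79 at least 1 below it (0.749%). The mix had 204 above and 154 below, clone a 458 and 336, and clone b 613 and 476. Clone c therefore had fewer lowered genes than any of the sister lines, and its number of raised genes lay between those of the mix and clone a.

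Immediate early genes, which growth factor and stress signals switch on within minutes and without new protein synthesis, stood below the sister lines in clone c. Of 28 measured members, 13, with MYC among them, were at least 1 below the sister range and 0 above, against 5.59% and 3.35% of all genes. All 28 were below the sister mean, against 5814 of all 10542 genes. The median of the 28 genes, relative to the vector mean, was 0.79, 1.10 and 1.23 in the mix, clone a and clone b, and -0.20 in clone c, where the median over all genes was -0.02, -0.04, -0.04 and -0.13. In the sister lines 15 of the 28 rose by at least 1 at an adjusted p under 0.05 in limma and 0 fell, against 3.66% and 2.62% of all genes.

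ARC, which encodes an activity-regulated cytoskeletal protein best known from neurons, was the gene in which clone c lay furthest below. It read 4.95, 5.09 and 5.06 on the vector arrays, 9.04, 9.27 and 10.33 in the mix, clone a and clone b, and 4.97 in clone c. Its rise in the sister lines was 4.51 ± 0.31 (SE, limma adjusted p = 0.000213), and clone c stood inside the vector range. FOS, a subunit of the AP-1 transcription factor, read 3.96, 4.11 and 4.08 on the vector arrays, 6.87, 7.37 and 8.0 in the mix, clone a and clone b, and 4.28 in clone c. Clone c was above the vector arrays here, and 0.23 above their mean, which is 6.81% of the sister lines' rise of 3.37 ± 0.26 (SE, limma adjusted p = 0.000242). FOS reached the filter value of 5 only in the sister lines, so the filter itself favoured this rise. EGR1, a zinc finger transcription factor, read 9.07, 9.06 and 9.03 on the vector arrays, 10.39, 10.84 and 11.07 in the sister lines and 8.83 in clone c. IER3, a stress-induced survival gene, read 7.06, 6.82 and 6.72 on the vector arrays, 8.63, 8.89 and 9.16 in the sister lines and 6.25 in clone c. In EGR1 and IER3, as in MYC, clone c was below all 3 vectors.

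Short sequences in the promoters of EGR1 and FOS are textbook entry points for such signals, and the regions are shown because these genes separate clone c from its sister lines. Both are 300 bases of RefSeq sequence on GRCh38.p14, 250 before and 50 after the gene start, on the plus strand, at chr5:138465229-138465528 for EGR1 and chr14:75278578-75278877 for FOS. Capitals mark matches to the CArG box, the serum response element core, in EGR1, and to TGACG, the cyclic AMP response half-site, and TATAAA in FOS.
EGR1: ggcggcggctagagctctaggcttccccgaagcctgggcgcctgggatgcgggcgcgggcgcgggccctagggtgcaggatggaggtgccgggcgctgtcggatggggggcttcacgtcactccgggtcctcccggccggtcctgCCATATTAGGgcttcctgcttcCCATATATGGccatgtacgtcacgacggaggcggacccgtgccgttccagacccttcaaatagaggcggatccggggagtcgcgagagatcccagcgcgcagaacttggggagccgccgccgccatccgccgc
FOS: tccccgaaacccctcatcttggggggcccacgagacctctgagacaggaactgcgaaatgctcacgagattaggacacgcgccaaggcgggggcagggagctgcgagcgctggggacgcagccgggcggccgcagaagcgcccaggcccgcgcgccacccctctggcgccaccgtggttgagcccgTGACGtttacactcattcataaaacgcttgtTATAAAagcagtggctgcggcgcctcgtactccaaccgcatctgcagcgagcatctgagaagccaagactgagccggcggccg
The EGR1 window holds CArG boxes that begin 105 and 83 bases before the start, and the FOS window holds TGACG at 64 and TATAAA at 33 bases before it. The EGR1 window also matches TGACG on the opposite strand, which is not capitalised. Of the 13 immediate early genes below the sister range 8 had a promoter entry: 1 held a CArG box, 5 held TGACG and 5 held TATAAA, searched on both strands. The same motifs were present in 1.29%, 25% and 12.0% of all 27305 promoters of the table and in 1.06%, 35.8% and 5.05% of those of the 8766 measured genes with an entry. A match to these letters is a description and not a bound site.

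The remaining immediate early genes beyond the sister range kept the same order of samples. EGR3, a relative of EGR1, read 4.13 to 4.57 on the vector arrays, 5.56 to 6.32 in the sister lines and 4.13 in clone c. CCN2, a secreted matricellular protein, read 4.35 to 4.52, 5.67 to 6.84 and 4.39 in the same order. SGK1, a kinase of salt and stress responses, read 5.23 to 5.59, 6.96 to 7.68 and 5.38. In these genes clone c lay at or inside the vector range. IER2 read 10.04 to 10.09 on the vector arrays, 11.54 to 11.91 in the sister lines and 9.77 in clone c, JUNB, an AP-1 subunit, 5.49 to 5.63, 6.15 to 7.0 and 4.98, and DUSP1, a phosphatase that turns off MAP kinases, 10.32 to 10.36, 11.09 to 11.43 and 9.93. CCN1, a matricellular relative of CCN2, and ZFP36, which binds and destabilises AU-rich mRNAs, were the last of the 13. Members of the list with high vector values and small shifts in the sister lines, JUN at 12.45 on the first vector array and ATF3 at 12.29, were within 1 of the sister range, at 12.12 and 12.08 in clone c.

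Targets and feedback genes of the ERK pathway, which carries growth factor signals from the membrane to the nucleus, were arranged in the same way in fewer members. Of 14 measured, 5 were at least 1 below the sister range (35.7%, against 5.59% of all genes) and 0 were above it. All 14 were below the sister mean, against 5814 of all 10542 genes, with a median difference of -0.99 against -0.08 over all genes. With arrays centred on their medians 3 of the 14 were at least 1 below. CCND1, which encodes cyclin D1, read 6.23, 6.48 and 6.29 on the vector arrays, 7.61, 8.09 and 8.13 in the sister lines and 6.10 in clone c, and its second probe set differed by -1.96 from the sister mean where the first differed by -1.85. ETV5, an ERK-induced ETS transcription factor, read 4.94, 4.86 and 5.22 on the vector arrays, 6.21, 6.24 and 6.73 in the sister lines and 4.85 in clone c. HBEGF and FGF2 were not among these 14. In a separate list of 19 growth factors and receptors, 1 was lower (5.26%, against 5.59% of all genes) and 1 higher (5.26%, against 3.35%). The receptor ligand HBEGF, which signals through the EGF receptor, read 6.76 to 6.97 on the vector arrays, 8.31 to 8.96 in the sister lines and 7.08 in clone c, just above the vector range. FGF2, another growth factor, went the other way: it read 7.29, 7.41 and 7.23 on the vector arrays, 7.14, 7.01 and 6.12 in the sister lines and 8.29 in clone c. The sister lines' difference in FGF2 did not pass the test (limma adjusted p = 0.101).

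Canonical histone genes, whose mRNAs are made mainly in S phase and mostly end in a stem-loop instead of a poly(A) tail, showed the list median furthest below the sister lines. Of 10 measured members 9 were at least 1 below the sister range (90%, against 5.59% of all genes) and 0 above. The median relative to the vector mean was 1.21, 1.53 and 1.77 in the mix, clone a and clone b, and -0.22 in clone c. In the sister lines 7 of the 10 rose, against 3.66% of all genes. H1-2, a linker histone, read 6.94, 6.62 and 6.84 on the vector arrays, 8.30, 8.82 and 9.35 in the mix, clone a and clone b, and 5.83 in clone c. H2BC5, a core histone H2B gene, read 6.70, 6.61 and 6.59 on the vector arrays, 8.40, 8.63 and 8.97 in the sister lines and 6.74 in clone c, and a second probe set read 6.20 in clone c against 6.43 to 6.92 on the vector arrays. H2BC12 read 11.09 to 11.14 on the vector arrays, 12.33 to 12.71 in the sister lines and 11.02 in clone c. Clone c therefore lay near the vector level in the H2B genes and below it in the linker histones H1-2 and H1-3. Histone genes are near-identical in sequence and several of these probe sets can bind more than 1 member, so the 9 genes are uncertain as separate measurements. Genes of DNA replication and S phase, measured in 37 members, did not share the pattern of the histones: 1 was at least 1 above the sister range, 0 were below, and the median difference from the sister mean was -0.04.

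The promoter of H2BC5, at chr6:26157871-26158170 on the plus strand of GRCh38.p14, is shown for the CCAAT and TATAAA matches that it shares with most of the lowered histone genes, in capitals.
H2BC5: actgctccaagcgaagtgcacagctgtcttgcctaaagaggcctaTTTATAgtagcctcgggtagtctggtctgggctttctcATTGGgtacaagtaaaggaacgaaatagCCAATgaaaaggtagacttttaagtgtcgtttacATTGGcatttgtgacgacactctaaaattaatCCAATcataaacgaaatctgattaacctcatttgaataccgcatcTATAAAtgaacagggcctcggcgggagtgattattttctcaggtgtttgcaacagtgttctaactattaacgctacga
Of the 9 histone genes below the sister range 8 had a promoter entry, of which 7 held CCAAT and 6 held TATAAA on either strand, against 35.7% and 12.0% of all promoters in the table. Promoters of all 477 lower genes with an entry held these motifs in 42.6% and 9.64%, and those of the 288 higher genes in 39.9% and 5.90%. Over all measured genes with an entry, from which both sets were drawn, the shares were 37.4% and 5.05%. The median G and C content of the promoter window was 66.0% for lower genes, 61.7% for higher genes and 65.7% for all measured genes with an entry.

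Heat shock genes divided within the list. Of 19 measured, HSPA6, DNAJB1 and BAG3 were at least 1 below the sister range (15.8%, against 5.59% of all genes) and 0 were above, and the list median difference was 0.05. HSPA6, a strictly stress-inducible HSP70, read 9.19, 9.27 and 9.33 on the vector arrays, 11.93, 11.91 and 12.71 in the mix, clone a and clone b, and 9.18 in clone c. DNAJB1, an HSP40 co-chaperone, read 10.54 to 10.61 on the vector arrays, 11.45 to 12.05 in the sister lines and 10.15 in clone c. BAG3, a co-chaperone of HSP70, read 10.50 to 10.56, 11.40 to 11.78 and 10.32 in the same order. The small heat shock gene HSPB8 was among the kept changes: it read 8.90, 8.90 and 8.93 on the vector arrays, 7.53, 7.58 and 7.49 in the sister lines and 8.09 in clone c. The second probe set of HSPA6 differed from the sister mean by -3.07, against -3.01 for the first, and transcripts of HSPA7, a near-identical copy, may have contributed to both. The HSPA6 promoter at chr1:161524290-161524589, plus strand, holds a match to the heat shock element, units of GAA and TTC in turn with 2 bases between them (searched on both strands, in capitals), that begins 74 bases before the start, which 0.487% of all promoters hold.
HSPA6: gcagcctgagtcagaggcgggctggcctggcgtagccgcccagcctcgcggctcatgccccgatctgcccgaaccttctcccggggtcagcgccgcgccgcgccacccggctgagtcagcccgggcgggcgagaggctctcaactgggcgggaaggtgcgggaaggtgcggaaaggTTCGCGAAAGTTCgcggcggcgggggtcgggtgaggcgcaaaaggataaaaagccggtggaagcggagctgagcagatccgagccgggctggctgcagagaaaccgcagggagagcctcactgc
Of the 3 heat shock genes below the sister range, all with a promoter entry, 1 held the element.

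Other genes furthest below the sister lines came from several functions. SERTAD1, a cell cycle and transcription cofactor, read 8.30, 8.40 and 8.34 on the vector arrays, 11.59, 12.02 and 12.25 in the sister lines and 8.13 in clone c. MIR7-3HG, the host transcript of a microRNA, read 4.09, 4.51 and 4.59 on the vector arrays, 7.01, 7.82 and 8.34 in the sister lines and 4.24 in clone c. KRTAP19-1, which encodes a hair keratin-associated protein, read 9.71 to 9.92 on the vector arrays, 12.27 to 12.86 in the sister lines and 9.58 in clone c. In these genes clone c was 0.16 to 0.24 below the vector mean. B3GALT6, a galactosyltransferase of glycosaminoglycan synthesis, belonged to them by the probe set used, with -2.73 from the sister mean, but its other probe set differed by only -0.18 and did not show the rise in the sister lines. CLPB, a mitochondrial chaperone, read 7.10, 6.96 and 7.35 on the vector arrays, 9.09, 9.48 and 9.90 in the sister lines and 6.32 in clone c. NLE1, a factor of ribosome assembly, read 6.03, 5.58 and 6.14 on the vector arrays, 6.89, 7.38 and 7.70 in the sister lines and 4.40 in clone c. RAB20, a small GTPase of vesicle transport, read 3.80, 3.74 and 3.96 on the vector arrays, 5.25, 5.75 and 5.96 in the sister lines and 2.69 in clone c, where values under 4 have no firm size, and SDF2L1, an endoplasmic reticulum protein, 7.48 to 7.63, 8.74 to 9.44 and 6.36. In these last 4 genes clone c was below all 3 vector arrays.

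**Figure D2:**
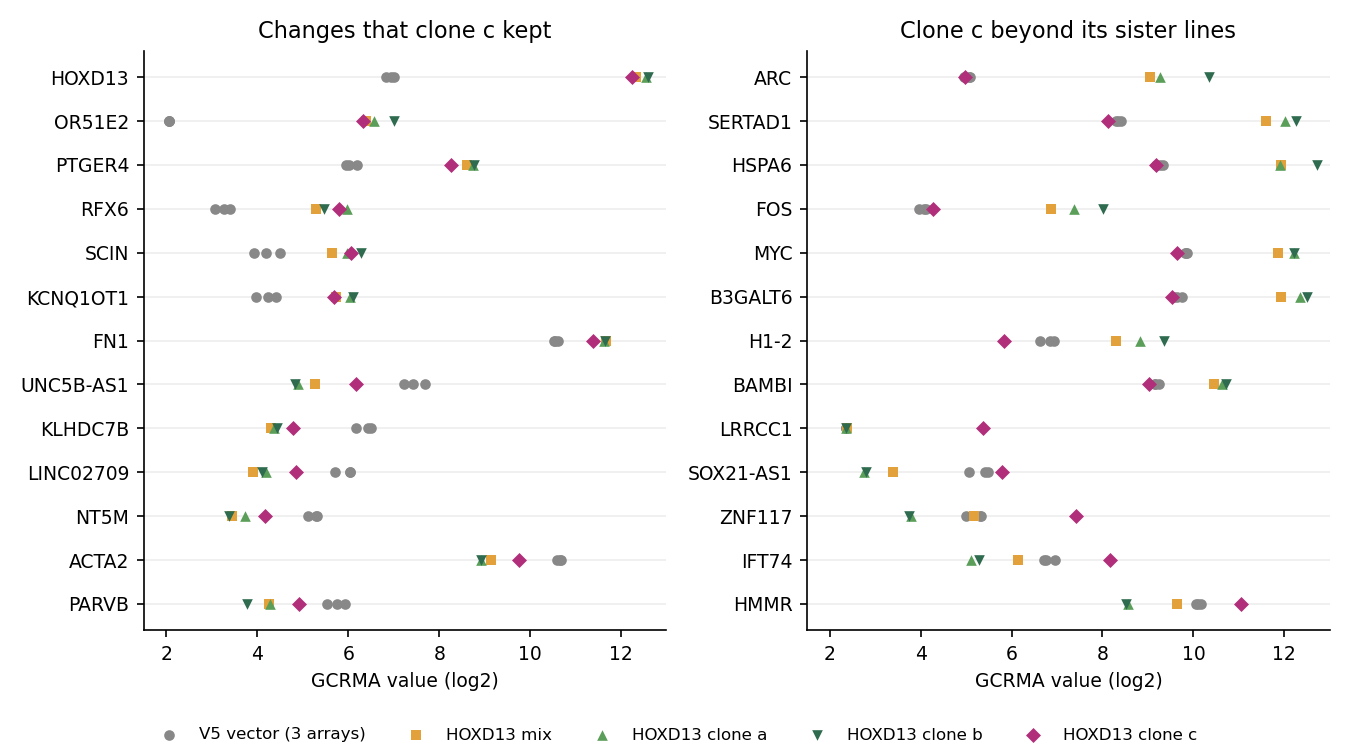
GCRMA values (log2, x axis) of 26 named genes on each array of the V5 set, with 3 vector arrays and 1 array for each HOXD13 line, and no error bars because every array is shown. In the left panel clone c lies on the sister lines' side of all vector arrays in 13 genes, and in the right panel it lies at least 1 outside the range of the sister lines in 13 genes.

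In the BMP and TGF-beta list 4 of 29 genes were lower (13.8%, against 5.59% of all genes) and 1 higher (3.45%, against 3.35%), and the 4 include BAMBI, which was used to choose the line. ID1, a BMP target that blocks differentiation factors, read 8.98, 9.01 and 9.10 on the vector arrays, 10.45, 10.77 and 10.87 in the sister lines and 8.58 in clone c. ID3, its relative, read 11.85 to 11.91, 12.88 to 13.05 and 11.74, and MSX2, a BMP-induced homeobox gene, 9.66 to 9.74, 10.78 to 11.20 and 9.77 in the same order. SKIL, an inhibitor of SMAD proteins that TGF-beta itself induces, was the member above: 9.68 to 9.74 on the vector arrays, 9.82, 9.44 and 9.11 in the mix, clone a and clone b, and 10.96 in clone c. Its second probe set also read highest in clone c, at 5.71 against 5.15 to 5.46 in the sister lines. In the NOTCH list 2 of 19 were lower (10.5%, against 5.59% of all genes) and 0 higher, with a median difference of -0.73. HEYL, a NOTCH target repressor, read 4.33 to 4.45 on the vector arrays, 4.88 to 5.51 in the sister lines and 3.82 in clone c. HEY2 was lower by the brighter probe set, 7.12 in clone c against 8.45 to 9.08 in the sister lines, while its other probe set placed clone c 0.51 above the sister mean, so its direction is uncertain. Of 17 WNT targets and feedback genes 0 were beyond the sister range on either side.

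Ribosome biogenesis genes and other MYC targets, read beside MYC itself, were lower in 7 of 31 members (22.6%, against 5.59% of all genes) and higher in 1 (3.23%), with a median difference of -0.56. The median relative to the vector mean was 0.25, 0.36 and 0.46 in the mix, clone a and clone b, and -0.25 in clone c. NOP2, a methyltransferase of 28S rRNA, read 8.88, 8.93 and 8.96 on the vector arrays, 10.17, 10.38 and 10.51 in the sister lines and 8.82 in clone c. GRWD1, a ribosome assembly and replication factor, read 7.67 to 7.72 on the vector arrays, 8.24, 8.79 and 9.15 in the sister lines and 6.91 in clone c. NOP58, a core protein of box C/D snoRNPs, was the exception, at 11.36 to 11.43 on the vector arrays, 11.32, 10.69 and 10.45 in the sister lines and 12.32 in clone c. The 39 cytosolic ribosomal protein genes had 0 members beyond the sister range and a median difference of 0.00, and the 27 proteasome subunits had 0 and 0.08.

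In the list of cell cycle inhibitors, D cyclins and p53 targets 5 of 31 were lower (16.1%, against 5.59% of all genes) and 1 higher (3.23%, against 3.35%). GADD45B, a stress sensor that binds MAP kinase kinases, read 9.82, 9.78 and 9.93 on the vector arrays, 11.69, 12.03 and 12.35 in the sister lines and 9.41 in clone c, and its other probe sets differed from the sister mean by -2.60 and -2.72 against -2.61. CDKN1C, a cyclin-dependent kinase inhibitor, read 5.92 to 6.07 on the vector arrays, 6.78 to 7.54 in the sister lines and 5.58 in clone c. RB1, the retinoblastoma gene, was the member above, at 10.20 to 10.51 on the vector arrays, 9.86, 9.62 and 9.24 in the sister lines and 10.88 in clone c. Among apoptosis regulators BIK, a BH3-only killer, and BCL2L1, whose product is BCL-XL, were the 2 lower members of 24 (8.33%, near the share of all genes), with differences from the sister mean of -1.46 and -1.79. Of the metabolic lists, glycolysis and hypoxia genes had 2 lower of 36 (SLC2A1, the glucose transporter GLUT1, by -1.46, and ADM, adrenomedullin, by -1.38), and cholesterol and fatty acid genes 2 of 26 (DHCR7, which makes cholesterol, by -1.79, and MVK, mevalonate kinase, by -1.16). These shares, 5.56% and 7.69%, were near the 5.59% of all genes, and the second probe set of MVK differed by only -0.22.

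**Figure D3:**
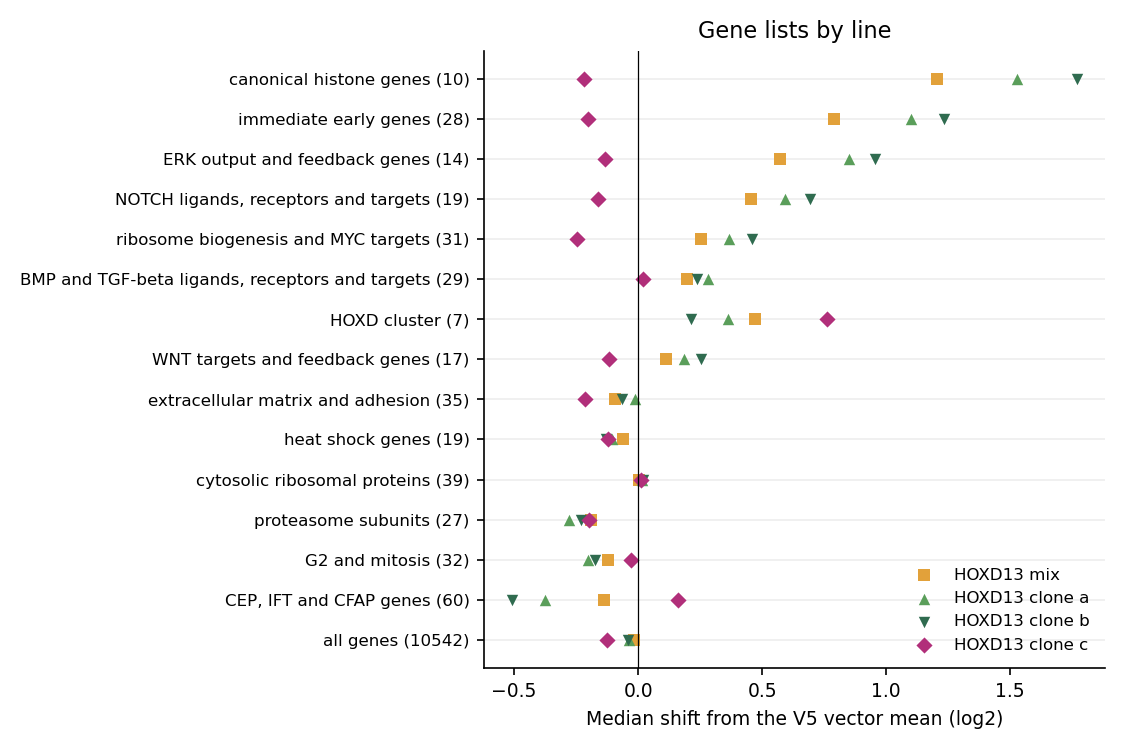
Median shift from the V5 vector mean (log2, x axis) of 14 gene lists and of all genes in each HOXD13 line, with the number of genes measured in brackets; points are medians over genes and carry no error. Histone and immediate early genes lie between 0.79 and 1.77 in the sister lines and at -0.22 and -0.20 in clone c, and ribosomal protein genes lie at 0.00 to 0.02 in all 4 lines.

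The HOXD cluster, which lies around the gene whose cDNA was introduced, was ordered otherwise. Of 7 measured members 0 were beyond the sister range by 1, but HOXD4, HOXD9 and HOXD10 were highest in clone c. HOXD9 read 5.63, 5.66 and 5.91 on the vector arrays, 6.01, 5.52 and 5.38 in the mix, clone a and clone b, and 6.78 in clone c. HOXD4 read 6.34, 6.42 and 6.44 on the vector arrays, 7.12, 6.56 and 6.60 in the sister lines and 7.65 in clone c. HOXD10 read 10.86 to 10.97 on the vector arrays, 11.14 to 11.39 in the sister lines and 11.69 in clone c. Clone c exceeded all 6 other arrays in these genes, whereas HOXD1, HOXD8 and HOXD11 of clone c lay below the sister mean. Outside the HOXD cluster, HOXC13 was at vector level in clone c, with 5.63 against 6.88 to 7.25 in the sister lines, and HOXC9 was kept, with 6.65 to 6.70 on the vector arrays, 8.0 to 8.41 in the sister lines and 7.57 in clone c.

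The filter shaped which genes could lie above: 37 of the 353 higher genes were under 5 on all 6 other arrays and were measured only through clone c, so that they had to differ, and 316 passed on another array as well. Among the 12 genes furthest above, LRRCC1, ANKRD26, FSD1L, COL4A3, ANKRD18A and MTCP1 were such genes. On the lower side, 42 of the 589 genes reached 5 only in sister lines, so the filter favoured their difference as well. FOS, EGR3, CCN2, H1-3, HEYL, LAMA4, MIR7-3HG and RAB20 were among those 42. The counts of lower genes in the immediate early, histone, NOTCH and matrix lists thus include members that the filter favoured. LRRCC1, which encodes a centrosomal coiled-coil protein, read 2.36 on each vector array, 2.37, 2.35 and 2.36 in the mix, clone a and clone b, and 5.36 in clone c. These low readings are near the floor of the scale, which begins at 1.83 in the V5 set, so the size of the difference depends on that floor. ANKRD26, an ankyrin repeat protein of the ciliary base, read 3.91, 3.63 and 3.62 on the vector arrays, 3.78, 3.63 and 3.60 in the sister lines and 5.99 in clone c, and its second probe set differed from the sister mean by 2.84. FSD1L read 3.73, 3.66 and 3.60 on the vector arrays, 4.10, 3.31 and 3.66 in the sister lines and 6.19 in clone c, with 2.66 above the sister mean by its second probe set. The second probe sets of ANKRD26 and FSD1L also passed the filter only through clone c. ZNF117, a zinc finger gene, read 5.32, 5.30 and 5.01 on the vector arrays, 5.16, 3.78 and 3.74 in the sister lines and 7.42 in clone c. COL4A3, a basement membrane collagen chain, read 3.07 to 3.10 on the vector arrays, 2.25 to 3.04 in the sister lines and 5.24 in clone c, and LINC00342, a long non-coding RNA, 5.48 to 5.86, 4.71 to 6.06 and 7.94. In all of these genes clone c was above each of the 6 other arrays by more than 1. ANKRD18A and MTCP1 followed the same order, at 6.46 and 5.15 in clone c against at most 4.58 and 3.35 on the other arrays.

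Others were raised in clone c where the sister lines had fallen. IFT74, a subunit of the intraflagellar transport complex that builds cilia, read 6.75, 6.95 and 6.71 on the vector arrays, 6.14, 5.10 and 5.29 in the sister lines and 8.16 in clone c, and its second probe set lay 1.76 above the sister mean. ZNF248 read 5.30, 5.34 and 5.80 on the vector arrays, 4.60, 4.29 and 3.97 in the sister lines and 6.65 in clone c. ACSL6, a long-chain acyl-CoA synthetase, read 5.58, 5.35 and 5.11 on the vector arrays, 4.44, 4.40 and 4.04 in the sister lines and 6.28 in clone c. The antisense transcript SOX21-AS1 read 5.42, 5.49 and 5.07 on the vector arrays, 3.39, 2.76 and 2.81 in the sister lines and 5.79 in clone c. In the mitotic list 2 of 32 members were above (6.25%, against 3.35% of all genes) and 0 below: HMMR, a spindle and hyaluronan-binding protein, read 10.06 to 10.17 on the vector arrays, 9.65, 8.57 and 8.53 in the sister lines and 11.05 in clone c, and CENPE, a kinetochore motor, 5.92 to 5.97, 6.96, 5.46 and 5.93, and 8.22. The remaining mitotic genes were within 1 of the sister range.

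The groups in this paragraph were formed after the values had been seen, so they are a description only. Of 60 measured genes named CEP, IFT or CFAP, which encode parts of centrosomes and cilia, 12 were at least 1 above the sister range (20.0%, against 3.35% of all genes) and 0 were below. IFT80 read 9.49 to 9.65 on the vector arrays, 9.46, 8.64 and 8.26 in the mix, clone a and clone b, and 11.01 in clone c. CEP290, mutated in ciliopathies, read 5.89 to 6.01 on the vector arrays, 6.50, 5.08 and 5.83 in the sister lines and 8.13 in clone c. Of 306 genes that RefSeq types as long non-coding RNA, 41 were above (13.4%) and 4 below (1.31%), while of 10107 protein-coding genes 298 were above (2.95%) and 582 below (5.76%). Of 341 ZNF genes 34 were above (9.97%) and 24 below (7.04%), against 3.35% and 5.59% of all genes.

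The position of clone c went with the genomic length of the gene. Of 2058 genes under 10 kb, 1.60% were at least 1 above the sister range and 13.5% at least 1 below. For the 2922 genes of 10 to 30 kb the shares were 2.33% and 6.37%, for the 3463 genes of 30 to 100 kb 4.94% and 2.51%, and for the 2092 genes of 100 kb or more 3.82% and 1.86%. The median length was 54.4 kb for the higher genes, 10.8 kb for the lower genes and 33.0 kb for all measured genes. Across the 10535 genes with a length the rank correlation of the shift from the vector with length was 0.27 in clone c, and -0.15, -0.21 and -0.24 in the mix, clone a and clone b. All 4 values share the vector arrays, and genes of an array are not independent replicates. The correlation of clone c was thus opposite in sign to those of its sister lines, and its 3′ minus 5′ control differences, given above, were on the other side of the vector range from theirs. Chromosome 19, which is dense in short genes, had 13.5% of its 650 measured genes below and 2.46% above, and chromosome 4 had 1.27% of 393 below and 6.62% above.

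**Figure D4:**
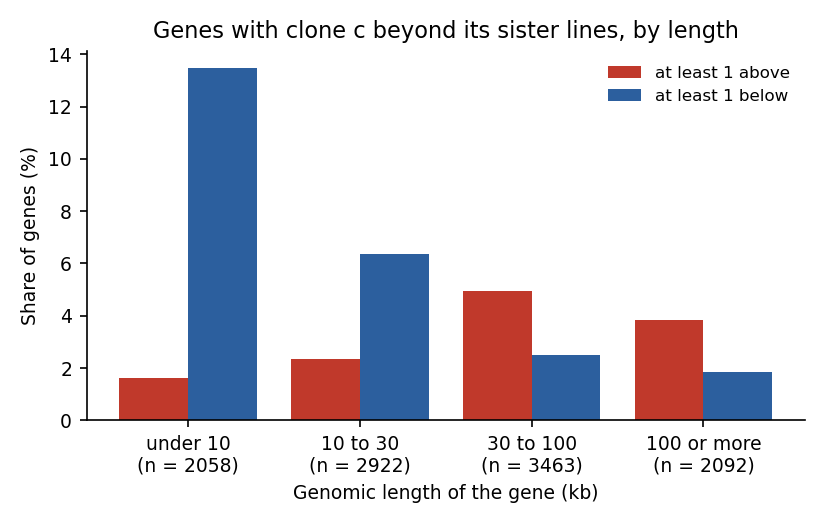
Share of measured genes (%, y axis, from 0) in which clone c was at least 1 log2 unit above (red) or below (blue) the range of its sister lines, by genomic length of the gene in kb; bars are shares of the stated number of genes and carry no error. The share below falls from 13.5% under 10 kb to 1.86% at 100 kb or more, and the share above is 1.60% and 3.82% in the same classes.

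Other probe sets of the same genes mostly placed clone c on the same side. The 353 higher genes had 213 further probe sets above the filter, of which 197 lay above the sister range, 103 of them by at least 1, and 2 lay at least 1 below it. The 589 lower genes had 256, of which 232 lay below, 136 of them by at least 1, and 2 lay at least 1 above. Further probe sets that passed the filter through clone c alone had to lie above, as those of ANKRD26, FSD1L and LINC00342 did. Those that passed only in sister lines were favoured to lie below. Neither kind was counted, so the agreement is in part set by the filter. Among genes named here, CA5BP1, HEY2, LAMA4 and GAD1 had another probe set on the opposite side of the sister mean.

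The sister lines raised 386 genes and lowered 276 against the vector, and clone c kept 30 and 57 of those changes at 50% or more of their size. A change counted as kept where clone c lay beyond all 3 vector arrays on the same side and reached 50% of the sister lines' mean shift. Of the 386 risen genes clone c kept 30 (7.77%), partly kept 66 (17.1%), was inside the vector range in 54 (14%) and was beyond the vectors on the other side in 236 (61.1%). Of the 276 fallen genes it kept 57 (20.7%), partly kept 104 (37.7%), was inside the vector range in 29 (10.5%) and on the other side in 86 (31.2%). The median percentage of the sister lines' shift found in clone c was -13.9% for risen genes and 17% for fallen genes. The kept counts depend on the limit: at 25% of the shift they were 52 risen and 119 fallen genes, and at 75% 17 and 13. With arrays centred on their medians, 32 risen and 50 fallen genes were kept, and 214 and 94 were on the other side. The shifts of clone c on the other side were mostly small, since its median shift over the risen genes was -0.20 and the 10th and 90th percentiles were -0.61 and 0.55. That class has no minimum size, and the median shift of clone c over all genes was -0.13. The share of all genes beyond the vectors on each side was not counted, so the 61.1% has no baseline here. Within the sister lines clone b lay furthest from the vector in 312 of the 386 risen genes and in 180 of the 276 fallen genes. Both shifts are taken from the same vector arrays, and without the fold limit 6162 genes (58.5%) differed between the sister lines and the vector.

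**Figure D5:**
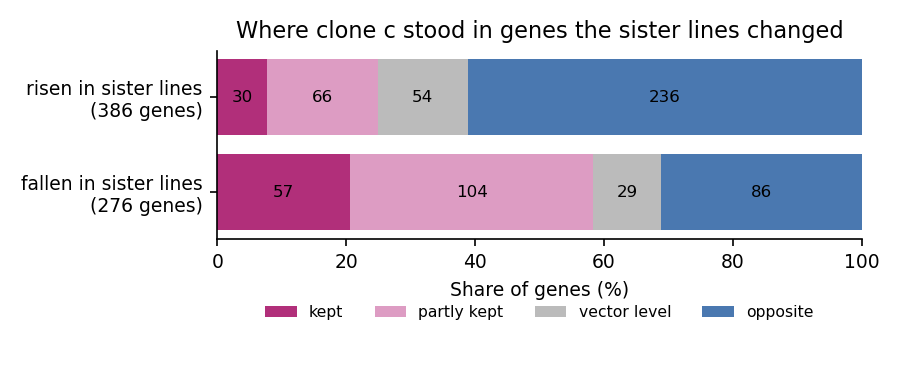
Stacked bars give the share (%, x axis) of the 386 genes that rose and the 276 that fell in the sister lines by the position of clone c, with gene numbers written in the bars: kept (beyond all vectors on the same side, 50% or more of the shift), partly kept, inside the vector range (vector level) or beyond it on the other side (opposite). Kept genes are 7.77% of the risen and 20.7% of the fallen, and the opposite class is 61.1% and 31.2%.

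After HOXD13, the largest rises that clone c kept were in OR51E2, PTGER4, RFX6, SCIN and KCNQ1OT1. OR51E2, an olfactory-type receptor also found in prostate, read 2.07 on each vector array, 6.39, 6.57 and 7.01 in the mix, clone a and clone b, and 6.33 in clone c. The rise in the sister lines was 4.59 ± 0.15 (SE, limma adjusted p = 4.36e-05), and clone c held 92.9% of it. PTGER4, the prostaglandin E2 receptor EP4, which raises cyclic AMP, read 5.94, 6.01 and 6.19 on the vector arrays, 8.61, 8.75 and 8.77 in the sister lines and 8.27 in clone c, or 83.4% of a rise of 2.67 ± 0.08. RFX6, a winged-helix factor of pancreatic islet development, read 3.26, 3.07 and 3.39 on the vector arrays, 5.28, 5.97 and 5.46 in the sister lines and 5.79 in clone c. SCIN, which encodes the actin-severing protein scinderin, read 3.94, 4.49 and 4.18, then 5.63, 5.98 and 6.29, and 6.07 in clone c. KCNQ1OT1, an imprinted antisense RNA, read 4.42, 4.24 and 3.96, then 5.72, 6.03 and 6.11, and 5.68 in clone c. Clone c lay within the sister range in RFX6 and SCIN, just below it in OR51E2 and KCNQ1OT1, and by 0.34 below it in PTGER4. Its place above every vector array in these genes follows from the rule for a kept change. The largest adjusted p among the named kept genes was 0.000614. OR51E2, RFX6, SCIN and KCNQ1OT1 reached the filter value of 5 only in HOXD13 lines, so the filter itself favoured their rises. These genes include members with vector values at the floor, so the size of their rise is not exact.

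Genes that rose in fewer units were kept as well. TOX3, an HMG-box transcription cofactor, read 4.69 to 5.23 on the vector arrays, 6.02 to 6.69 in the sister lines and 7.13 in clone c, so that clone c stood above all of them. SEMA3C, a secreted guidance cue, read 4.67 to 5.20, 6.33 to 6.75 and 6.26 in the same order, and EBF2, a transcription factor of adipose and neural cells, 3.94 to 4.18, 5.16 to 5.96 and 5.38. CDKN2B, a cyclin-dependent kinase inhibitor, read 7.36 to 7.42, 8.54 to 8.91 and 8.25. EBF2 reached the filter value of 5 only in HOXD13 lines, so the filter favoured its rise. These 4 genes, with IGFBP7 and LAPTM5 below, were picked for description after their values were seen.

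Changes downward that clone c kept were led by transcripts of varied function. UNC5B-AS1, an antisense RNA of the netrin receptor gene UNC5B, read 7.69, 7.23 and 7.43 on the vector arrays, 5.26, 4.90 and 4.82 in the mix, clone a and clone b, and 6.17 in clone c, which held 51.9% of the fall. KLHDC7B, a kelch-domain gene, read 6.17, 6.43 and 6.49 on the vector arrays, 4.30, 4.37 and 4.43 in the sister lines and 4.78 in clone c, or 79.2% of the fall. ACTA2, smooth muscle alpha-actin, read 10.60, 10.65 and 10.68 on the vector arrays, 9.15, 8.91 and 8.92 in the sister lines and 9.76 in clone c, or 53.6%. In these genes clone c lay between the vector arrays and the sister lines and did not overlap the sister lines. Its place below every vector array follows from the rule for a kept change. NT5M, a mitochondrial nucleotidase, was kept at 62.1%, PARVB, a focal adhesion protein, at 50.7%, and the non-coding LINC02709 at 58.6%. UNC5B-AS1, ACTA2 and PARVB were thus just past the 50% limit. IGFBP7, a secreted binding protein of insulin-like growth factors, read 8.91 to 9.02 on the vector arrays, 7.37 to 7.44 in the sister lines and 8.12 in clone c. GDF15, a stress-induced TGF-beta family ligand, read 11.69 to 11.83, 10.57 to 10.85 and 10.61, and LAPTM5, a lysosomal membrane protein, 4.78 to 5.33, 3.46 to 4.09 and 3.41 in the same order. In GDF15 and LAPTM5 clone c had thus gone the whole way with its sister lines.

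Of the 276 fallen genes, some of the largest falls were at or above the vector level in clone c. NCAM1-AS2, antisense to the adhesion gene NCAM1, read 6.43, 6.40 and 6.62 on the vector arrays, 4.98, 4.17 and 3.68 in the sister lines and 6.48 in clone c. SDCBP2-AS1 read 6.21, 6.54 and 6.42 on the vector arrays, 4.77, 3.60 and 3.55 in the sister lines and 6.59 in clone c. EID2B, a relative of the EP300 inhibitors, read 5.65, 5.43 and 5.58, then 4.02, 3.24 and 3.13, and 5.60 in clone c. ALDH1L2, a mitochondrial folate enzyme that ATF4 induces, read 8.66, 8.66 and 8.36 on the vector arrays, 7.21, 6.79 and 6.49 in the sister lines and 8.72 in clone c. Clone c lay inside the vector range or just above it in these genes, with no overlap with the sister lines. Antisense transcripts were read from the probe sets that carry their names.

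Of 35 matrix and adhesion genes measured, 2 were at least 1 below the sister range (5.71%, near the 5.59% of all genes) and 0 above. FN1 was kept by all 4 of its probe sets above the filter, with clone c 0.67 to 0.85 above the vector mean. LAMA4, a laminin chain, was lower by the brighter probe set, 4.44 in clone c against 5.87 to 6.77 in the sister lines, and not by its other, at 5.78 against 5.39 to 5.78. TNC, tenascin C, read 7.38, 7.22 and 7.31 on the vector arrays, 7.48, 7.81 and 8.05 in the sister lines and 6.39 in clone c.

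In the HOXD9 lines, which were normalised apart with their own HA vector arrays, the genes that set clone c of HOXD13 apart were not at their vector level throughout. The median shift of the 353 higher genes was -0.07, -0.46, 0.11 and -0.69 in the HOXD9 mix and its clones a, b and c, and that of the 589 lower genes 0.27, 0.40, 0.17 and 0.71, against 0.04, 0.11, 0.00 and 0.19 over all genes. The higher genes thus lay below the all-gene median in 3 of the 4 HOXD9 lines, and the lower genes above it in all 4. HSPA6 varied among them from -0.95 to 2.98, and OR51E2 was at 0.00 in all 4.

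At the limit of 1 log2 unit, the genes just past it were HOOK3 and SIM1 above and POLL and RRP12 below, with clone c at 9.06, 6.48, 4.44 and 8.37 against sister ranges of 7.67 to 8.06, 4.97 to 5.48, 5.45 to 5.52 and 9.37 to 9.82. Just short of it were GAD1 and ALG13 above and MIEN1 and DHX37 below, with clone c at 6.73, 10.01, 9.01 and 6.68 against 4.92 to 5.73, 8.53 to 9.01, 10.01 to 10.40 and 7.68 to 8.16.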

How the data were processed

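RNA extracted with Trizol was labelled and hybridised to 14 Affymetrix arrays, per the labels' protocols. The authors deposited log2 expression values of 54675 probe sets made with GCRMA, per the submitters' processing notes; its version is not given in the sources used here. The V5 and HA sets were normalised apart: the 75th percentile of the values is 7.02 in the V5 set and 6.27 in the HA set, and only the V5 set entered the tests. The members and lists were chosen with earlier results of these data known.

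Probe sets naming 1 gene (41097, of which 41043 matched RefSeq) were kept, 1801 naming several and 11777 naming none were left out, a gene was represented by its brightest probe set on average in the 7 V5 arrays, and genes had to reach 5 on 1 of these arrays. limma 3.58.1 in R 4.3.3 compared 3 sister lines with 3 vector arrays, with Benjamini-Hochberg adjustment over 10542 genes, calling genes at an adjusted p under 0.05 and 1 log2 unit. The script was tested on simulated data. Summaries used Python 3.11.15.

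Named genes were HOXD13, MYC, FN1 and BAMBI, the 12 furthest above and the 12 furthest below the sister range, the 6 largest kept rises and 6 largest kept falls, the 5 largest changes not kept in each direction, the 2 furthest members each way of lists with at least 2 beyond the range, and 2 genes on either side of the limit on each side; other members of the lists are given beside them. Alternatives covered the filter, distance, probe set, centring, floor, kept percentage and each array left out.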

Additional observations from a re-analysis of the deposited data

Results flagged for a closer look

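In 12 named genes every sister line lay at least 0.5 log2 units on one side of the vector mean and clone c at least 0.5 on the other, a difference that was not tested because clone c has 1 array. The values are clone c minus the sister mean on the log2 scale. Clone c was lower in CLPB (-3.17), H1-2 (-3.0), RAB20 (-2.96), NLE1 (-2.92), SDF2L1 (-2.73), GRWD1 (-1.82), BCL2L1 (-1.79), HEY2 (-1.71) and SLC2A1 (-1.46), and higher in IFT74 (2.66), ZNF248 (2.36) and ACSL6 (1.98). For HEY2 the other probe set gave a difference of 0.51, on the opposite side. RAB20 was under 4 on the vector arrays and in clone c, and with values under 4 set to 4 its difference was -1.65 and clone c was at the vector level.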

How the results depend on the processing

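The counts rest on a single array of clone c, so the spread of that line is not known. Under a distance of 1.5-fold in place of 2-fold 1239 genes were higher and 1753 lower in clone c, and under a distance of 2 the counts were 8 and 27. Measured from the sister mean they were 779 and 974. Leaving out each sister line gave 358 to 815 higher and 599 to 997 lower genes, the upper values without the mix. Without the fold limit 2953 genes rose and 3209 fell in the sister lines, of which clone c kept 390 and 1199. It kept 52 and 119 at 25% of the shift and 17 and 13 at 75%. In alternatives chosen after seeing the data, every probe set gave 819 and 932 of 17990, genes under 30 kb gave 101 higher, and genes of 30 kb or more gave 126 lower. A count cannot reverse in sign, and several of these counts moved far with the setting. In the mean over probe sets no named gene changed sign. Single other probe sets of CA5BP1, HEY2, LAMA4 and GAD1 did put clone c on the opposite side of the sister mean (-1.32, 0.51, 0.20 and -0.41, against 2.36, -1.71, -1.97 and 1.49). Of 468 alternative values of named genes 442 stayed within the spread and 26 did not. Values near the floor have no firm size: with values under 4 set to 4, LRRCC1 differed from the sister mean by 1.36 and OR51E2 of clone c from the vector mean by 2.33. No paired analysis was possible because the replicate numbers of the vector arrays do not correspond to the mix and the clones.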
